A study of Mus musculus with 13 samples.

Results

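Cholesterol synthesis and sterol transport genes were measured in the brain of 13 males of the mouse strain C3HeB/FeJ, with 1 hemisphere and 1 array per animal. Pellets carrying 1% creatine, a compound with which cells buffer their ATP supply, were given to 6 mice, freely and for 6 months. The other 7 mice received pellets of matched calories that lacked creatine. Feeding began at 10 to 12 weeks of age, and no other genetic or drug treatment is named for either group. The genes were taken from a list of 29 by symbol, and 27 of them had at least 1 probe set with a single gene symbol, out of 18193 genes measured in all. Acat2 and Nr1h2 matched no such probe set and were not analysed here. The 27 genes hold 58 probe sets, and the brightest of each gene, by its mean over the 13 mice, gives its value unless another is named. Values are array intensities on a linear scale, and a log2 difference is the mean of log2(intensity + 16) in creatine-fed mice minus that in untreated mice.

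The brain makes nearly all of its own cholesterol, since lipoproteins of the blood do not cross the blood-brain barrier, and most of it lies in myelin. Cells build it from acetyl-CoA through mevalonate and farnesyl diphosphate, join farnesyl units to squalene, and close and trim the rings to cholesterol. When membrane sterol is low, Scap carries the SREBP factors (Srebf1, Srebf2) to the Golgi, where they are cut and released to switch on the genes of synthesis, while Insig1 and Insig2 hold Scap back when sterol is plentiful. Sterol leaves lysosomes through Npc2 and Npc1, is exported by Abca1 and Abcg1, or is hydroxylated in neurons by Cyp46a1, the route by which much of the brain's cholesterol is cleared.

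The DNA just before the starts of these genes was searched for the letters bound by factors of this control, and it is shown for 4 genes whose values are described below. RefSeq start sites were listed for 24 of the 29 genes, 22 of them measured, and the 250 bases before each start were searched on both strands. The sequences are from GRCm38.p6 and are written 5′ to 3′ on the gene's strand, ending at the base before the start. Capitals mark the sterol regulatory element letters TCACNCCAC, to which SREBP factors bind, and the CCAAT box, the letters bound by NF-Y, a partner of SREBP factors; on the opposite strand the box reads ATTGG. The windows are chr13:119690101-119690350 (plus strand) for Hmgcs1, chr9:42264301-42264550 (minus) for Sc5d, chr10:76531355-76531604 (plus) for Lss and chr4:53159896-53160145 (minus) for Abca1.
Hmgcs1: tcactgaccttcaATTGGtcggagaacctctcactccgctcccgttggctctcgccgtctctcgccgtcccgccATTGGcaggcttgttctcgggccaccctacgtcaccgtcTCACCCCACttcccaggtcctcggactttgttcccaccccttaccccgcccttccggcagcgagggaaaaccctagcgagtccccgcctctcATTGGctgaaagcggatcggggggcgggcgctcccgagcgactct
Sc5d: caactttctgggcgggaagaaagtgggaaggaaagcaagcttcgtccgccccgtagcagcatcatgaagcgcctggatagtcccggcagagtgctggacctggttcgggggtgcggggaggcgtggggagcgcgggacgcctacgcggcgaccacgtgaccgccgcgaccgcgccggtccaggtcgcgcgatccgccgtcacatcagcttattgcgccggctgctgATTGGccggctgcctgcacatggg
Lss: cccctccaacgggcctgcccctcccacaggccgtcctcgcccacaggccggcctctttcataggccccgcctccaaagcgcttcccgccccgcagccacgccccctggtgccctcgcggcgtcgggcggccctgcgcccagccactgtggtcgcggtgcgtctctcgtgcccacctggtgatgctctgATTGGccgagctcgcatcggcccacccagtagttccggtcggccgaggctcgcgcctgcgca
Abca1: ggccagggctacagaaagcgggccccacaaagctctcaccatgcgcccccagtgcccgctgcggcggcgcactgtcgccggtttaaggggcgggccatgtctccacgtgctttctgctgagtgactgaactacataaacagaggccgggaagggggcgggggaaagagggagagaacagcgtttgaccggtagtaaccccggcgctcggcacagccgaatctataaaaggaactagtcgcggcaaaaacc

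Counting back from the start, Hmgcs1 holds the sterol regulatory element at bases -137 to -129 and 3 CCAAT boxes, the nearest at -45 to -41. Sc5d and Lss hold 1 CCAAT box each, at -24 to -20 and -62 to -58, and no capitals fall in the Abca1 window. A CCAAT box stood in the window of 14 of the 15 synthesis genes with a listed start, where 37.5% of 27025 genes, or 33.8% of 32851 windows, hold one. The GC box GGGCGG, the letters bound by Sp1, stood before 14 of the 15 too, against 35.4% of genes and 32.7% of windows. Regulators of the pathway held a CCAAT box in 4 of 6 and a GC box in 5 of 6. Transport and turnover genes held them in 2 of 3 and 3 of 3. Fdps, Fdft1, Sqle, Abcg1 and Npc1 had no listed start. The element TCACNCCAC was found before 1 of the 24 genes, Hmgcs1, and in 1.05% of all windows. No sites of different motifs overlapped in these windows, and a match in letters is no measure of binding.

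Before the sterol genes, the samples were checked against their labels. The dimmest of 6 neuronal markers, Tubb3, had group means of 813.4 and 736.7, while the liver markers Alb and Cyp2e1 had group means between 10.7 and 24.4, below every array median (37 to 45). Markers of oligodendrocytes and myelin, where sterol synthesis is prominent, had lower means in creatine-fed mice in 8 of 9 genes. Their median log2 difference was -0.12, and 58.5% of all genes had lower means. The summed intensity of these markers ran from 18170 to 20462 in creatine-fed and from 19846 to 24577 in untreated mice. These sums overlap, and no marker passed. Mag differed by -0.30 (unadjusted p = 0.00163, limma adjusted p = 0.186), a lower p than at any of the 58 sterol probe sets. Astrocyte markers had lower means in 7 of 8, with sums of 11678 to 13024 against 12496 to 14826. For Fgfr3 all 6 creatine-fed mice lay below every untreated one (441 to 548 against 551 to 609, limma adjusted p = 0.244). Groups lay apart, in either direction, in 0.649% of all genes. Directions varied among the other lists, and none of their markers passed. Log2 means were higher in creatine-fed mice for 3 of 3 markers of excitatory cortex and hippocampus and 4 of 5 of microglia. Cerebellar markers were higher on that scale in 4 of 4, neuronal in 3 of 6 and endothelial in 2 of 4. Choroid plexus markers were higher in 1 of 3, blood in 1 of 2 and liver in 0 of 2. Sums of cerebellar markers ran from 3952 to 8253 in creatine-fed and from 1727 to 10436 in untreated mice. Pcp2 ran from 27 to 2881 and Gabra6 from 22 to 2494 in untreated mice. In creatine-fed mice they ran from 736 to 2104 and from 556 to 1952. The lowest untreated values of both lay below every array median, so at least 1 untreated sample held little cerebellar RNA. The log2 3′/5′ ratio of the Gapdh and Actb control probe sets, a measure of RNA quality, ran from 0.09 to 0.22 in creatine-fed and from 0.13 to 0.24 in untreated mice. In tissue made of several cell types, fewer cells of a type and less RNA per cell cannot be told apart. The part of tissue content, cell makeup and RNA quality in the differences below was not tested. Only a fit that adds this ratio as a term was run.

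The comparison of the groups asks whether these genes differ in the hemisphere after creatine feeding. None of the 27 sterol genes passed, in a limma fit over all 45037 probe sets with Benjamini-Hochberg adjustment, where 4 probe sets passed (0.00888%), or 1 of 18193 genes at their brightest probe set (0.0055%). The lowest adjusted p of a sterol gene was 0.271, and over their 58 probe sets it was 0.221. Means were higher in creatine-fed mice for 15 genes and lower for 12, and the median log2 difference was 0.01, beside -0.03 and 58.5% lower means over all genes. After each array was centred on its median, 5 of the 27 were lower and the median was 0.06. Centring moves the difference of every gene by the same amount, so the values over all genes move too. No direction is therefore given for the group. At an unadjusted p under 0.05 there were 4 sterol genes, 2 higher and 2 lower, or 14.8%, and 11.2% of all genes reached that level, 3.58% higher and 7.61% lower. Without untreated replicate 3 there were 7 such sterol genes, and none passed. The share of all genes at that level in that fit is not given here, so the 7 cannot be weighed. The median size of the difference, without sign, was 0.052 for the sterol genes and 0.076 for the 10932 genes of mean intensity 45 or more, a level all 27 reached.

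**Figure D1:**
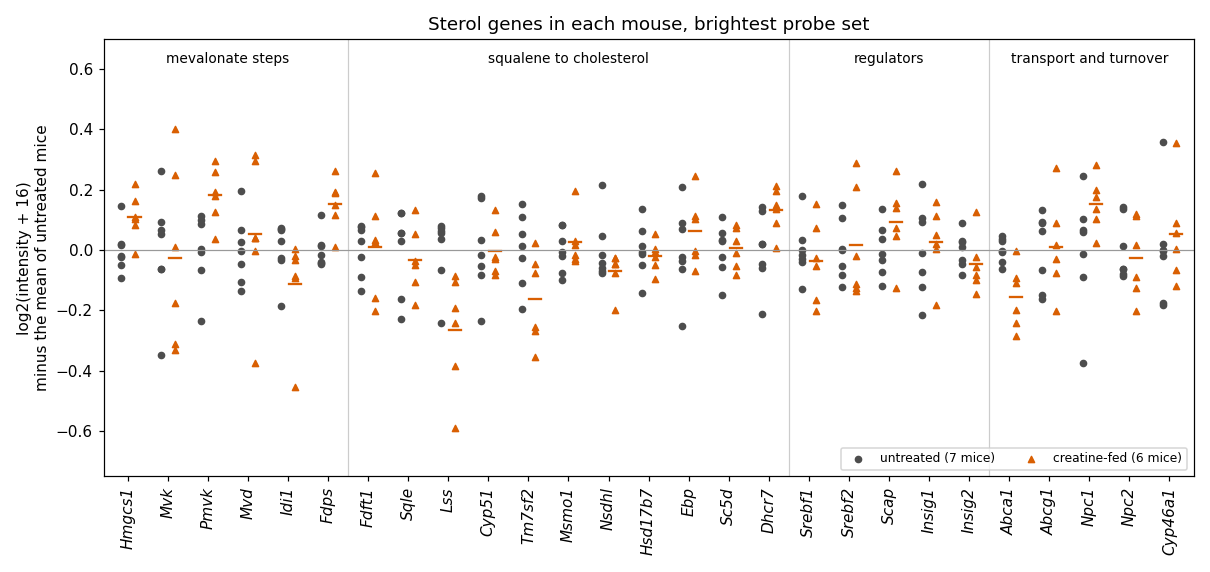
Each point is 1 mouse: log2(intensity + 16) at the brightest probe set of each sterol gene, minus the mean of the 7 untreated mice, with circles for untreated and triangles for creatine-fed mice and a bar at the creatine-fed mean. The groups overlap for all 27 genes. The 6 triangles all lie above 0 for 4 genes and all below 0 for 3. The share of all genes with this trait is not given here.

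The plot of each mouse shows how narrow the spread was. The coefficient of variation among untreated mice had a median of 7.99% over the sterol genes, from 2.89% for Abca1 to 15.0% for Mvk, beside 9.54% over the genes of mean 45 or more. In creatine-fed mice the median was 8.49%. The groups overlapped for all 27 genes, and 0.649% of all genes had groups apart. Measured as the median over the 27 genes of each mouse's deviation from the untreated mean, creatine-fed replicate 4 stood highest at 0.13, and the other 12 mice lay between -0.04 and 0.04.

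Mevalonate steps came first in the pathway and held the 2 genes with higher means at an unadjusted p under 0.05. Of 6 measured genes 4 had higher means and 2 lower, none passed, and the median log2 difference was 0.08. Pmvk, the phosphomevalonate kinase, read 153, 183 and 199 (lowest, median and highest) in untreated mice and 188, 210 and 228 in creatine-fed mice. Of the 6 creatine-fed mice 5 lay above every untreated one, and the log2 difference was 0.18 ± 0.07 (SE, unadjusted p = 0.0238, limma adjusted p = 0.344). Pmvk has 1 probe set, so no second one bears on it.

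Fdps, the synthase of farnesyl diphosphate, read 368, 376 and 414 in untreated and 384, 430.5 and 460 in creatine-fed mice. Here 4 creatine-fed mice lay above every untreated mouse, with a log2 difference of 0.15 ± 0.06 (SE, unadjusted p = 0.0213, limma adjusted p = 0.332). Its other probe set had an array mean of 1.69 and gives no level. Idi1, the isomerase that makes dimethylallyl diphosphate, read 320, 374 and 386 in untreated and 263, 350.5 and 367 in creatine-fed mice, and differed by -0.11 ± 0.08 (SE). Its dimmer probe set averaged 160.4 ± 11.6 (SD, n = 7) in untreated and 132.2 ± 16.5 (SD, n = 6) in creatine-fed mice, with 5 of 6 treated mice below every untreated one (-0.26 ± 0.08, SE, limma adjusted p = 0.242). Both probe sets of Idi1 were thus lower on average, and neither passed. Without creatine-fed replicate 6, which read 263, the brightest differed by -0.04.

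Hmgcs1, the synthase that makes HMG-CoA and the gene whose window carries the element shown above, differed in sign between its probe sets. At the brightest it read 2414, 2544 and 2856 in untreated and 2552, 2773.5 and 3002 in creatine-fed mice, and differed by 0.11 ± 0.06 (SE, limma adjusted p = 0.508). At the next in brightness the means were 2120.3 ± 131.4 (SD, n = 7) in untreated and 1895.8 ± 222.5 (SD, n = 6) in creatine-fed mice (-0.17 ± 0.08, SE, adjusted p = 0.434). At the third they were 1431.9 ± 69.7 and 1275.7 ± 196.2 (-0.18), and at the fourth 609.7 ± 41.4 and 576.5 ± 34.9 (-0.08). The mean over all its probe sets gave a log2 difference of -0.05, so no direction is given for Hmgcs1. Mvk, the mevalonate kinase, and Mvd, the decarboxylase of the pathway, were dim, with group means from 83.3 to 90.2, and differed by -0.03 and 0.05. The other probe set of Mvd, with means of 89.0 ± 14.8 (SD, n = 7) and 72.3 ± 16.8 (SD, n = 6), went the other way (-0.26 ± 0.13, SE, limma adjusted p = 0.452), so no direction is given for Mvd.

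**Figure D2:**
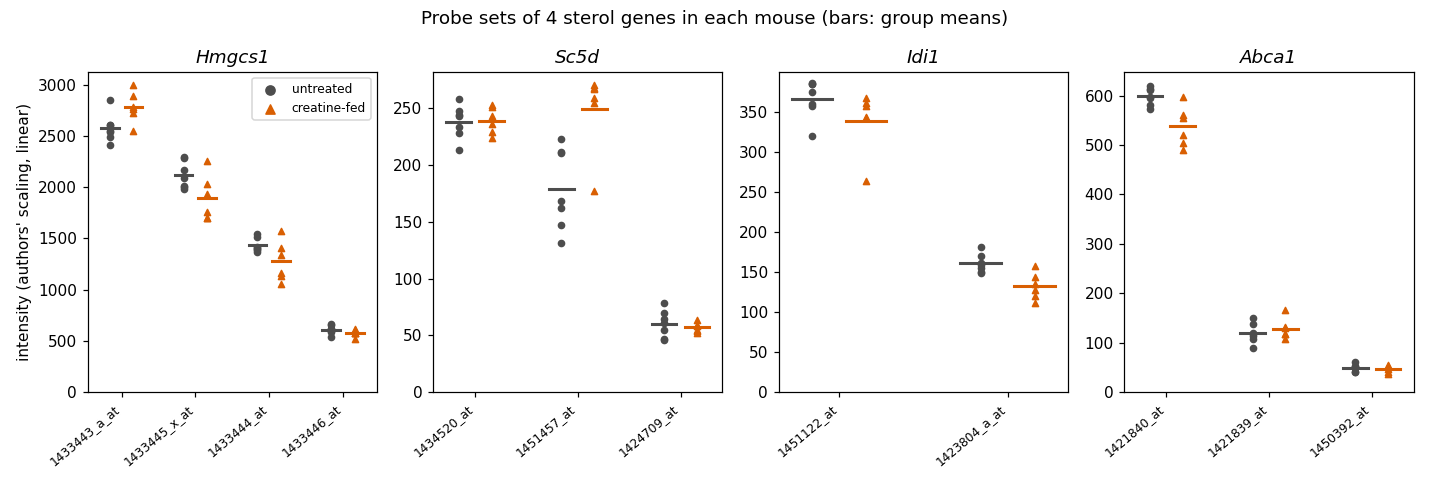
Intensity on the authors' linear scale in each mouse for the probe sets of mean 45 or more of Hmgcs1, Sc5d, Idi1 and Abca1, from brightest to dimmest, with circles for untreated mice, triangles for creatine-fed mice and bars at the group means. For Hmgcs1 the creatine-fed mean is above the untreated one at the first probe set and below it at the others; for Sc5d 5 of 6 creatine-fed mice lie above every untreated mouse at the next in brightness, and at the brightest probe set the group means are 239.3 and 238.3.

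From squalene to cholesterol, 11 genes were measured, 5 with higher and 6 with lower means, with a median of -0.00 and none past the threshold. Lss, which folds squalene epoxide into lanosterol, had the lowest p of the 27 genes. It read 124, 156 and 159 in untreated and 94, 126.5 and 140 in creatine-fed mice, and all 6 values after creatine were under the untreated mean, 2 of them below every untreated mouse. The log2 difference was -0.27 ± 0.09 (SE, unadjusted p = 0.0104, limma adjusted p = 0.271). Its next probe set, with means of 88.7 ± 12.1 (SD, n = 7) and 76.7 ± 9.58 (SD, n = 6), was lower too (-0.17 ± 0.09, SE), while the third was dim, with means of 6.43 and 11.2. After each array was centred Lss differed by -0.21. With the mean of all 3 the log2 difference was -0.06 (limma adjusted p = 0.779). Untreated replicate 1 read 124, the lowest of its group, and lay within the creatine-fed range.

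Tm7sf2, a reductase of sterol rings, read 111, 131 and 146 in untreated and 98, 114 and 132 in creatine-fed mice, and differed by -0.16 ± 0.08 (SE, limma adjusted p = 0.464). Dhcr7, which takes the last step of one branch to cholesterol, went the other way, at 157, 187 and 205 against 185, 205 and 216, and all 6 values after creatine exceeded the untreated mean (0.13 ± 0.07, SE, adjusted p = 0.487). Sqle, the squalene epoxidase and a rate-controlling enzyme, read 365, 448 and 470 in untreated and 377, 417 and 473 in creatine-fed mice, and the 95% interval of its log2 difference ran from -0.20 to 0.14. Cyp51, the demethylase of lanosterol, read 156, 184 and 213 against 175, 182.5 and 206, with an interval from -0.17 to 0.16. For Sqle the groups covered nearly the same range, and for Cyp51 the creatine-fed mice lay within the untreated range. Fdft1, which joins 2 farnesyl units into squalene, differed by 0.01 at both of its bright probe sets. The demethylation enzymes Msmo1, Nsdhl and Hsd17b7 differed by 0.03, -0.07 and -0.02, and the isomerase Ebp by 0.06.

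Sc5d, the sterol desaturase, read 213, 243 and 258 in untreated and 224, 239.5 and 253 in creatine-fed mice at its brightest probe set, and differed by 0.01 ± 0.06 (SE). At the next in brightness it averaged 179.1 ± 36.0 (SD, n = 7) in untreated and 249.5 ± 36.0 (SD, n = 6) in creatine-fed mice, and 5 of 6 creatine-fed mice lay above every untreated one. That log2 difference, 0.45 ± 0.13 (SE), had the lowest p of the 58 sterol probe sets (unadjusted p = 0.00388, limma adjusted p = 0.221) and did not pass. It was picked out for its value, and the third probe set differed by -0.05.

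The log2 ratio of the brightest to the next probe set on the same array, each with 16 added, was compared between groups in every gene with 2 or more probe sets of mean 45 or more. This comparison was chosen after Hmgcs1, Sc5d and Idi1 had been seen. Of 5058 such genes 15 passed in limma (0.297%), and 15.8% had an unadjusted p under 0.05. Of 14 sterol genes none passed and 3 had an unadjusted p under 0.05, with a lowest adjusted p of 0.133. The ratio of Sc5d was 0.40 ± 0.32 (SD, n = 7) in untreated and -0.04 ± 0.19 (SD, n = 6) in creatine-fed mice (limma adjusted p = 0.133), that of Hmgcs1 0.28 ± 0.11 and 0.56 ± 0.22 (adjusted p = 0.182), and that of Abca1 2.20 ± 0.24 and 1.95 ± 0.16 (adjusted p = 0.28). The ratios of the other 11 differed by -0.15 to 0.31, the highest being Mvd (limma adjusted p = 0.369), whose 2 probe sets are dim. Without creatine-fed replicate 4 its ratio differed by 0.48 (adjusted p = 0.0329). Without any other single mouse the adjusted p was 0.332 to 0.577. How many of all ratios passed without that replicate is not given here.

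**Figure D3:**
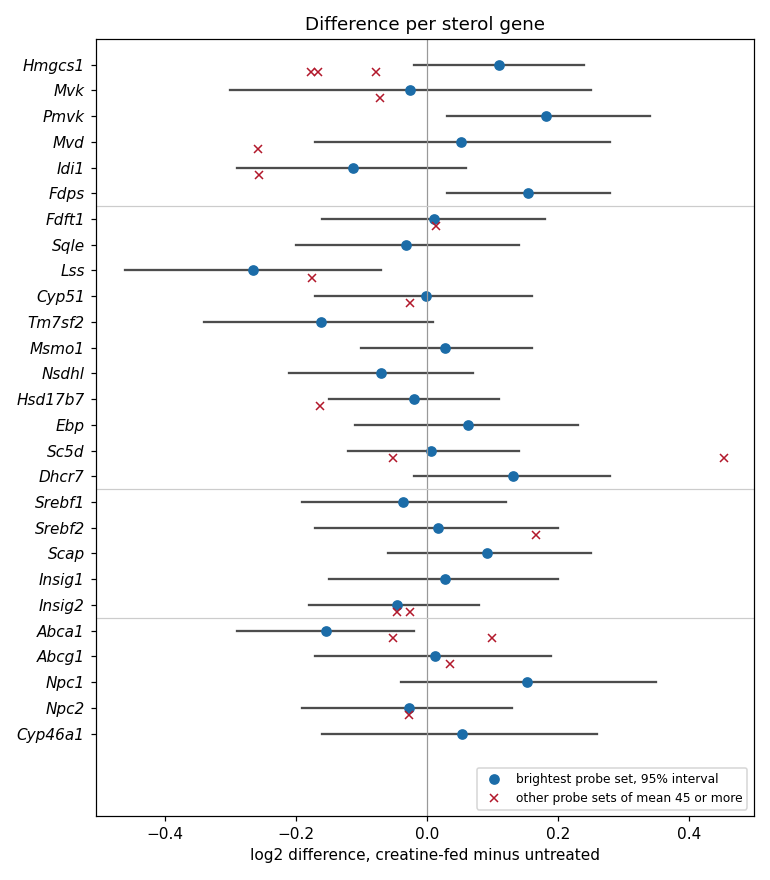
Log2 difference of each sterol gene, creatine-fed minus untreated: points are the brightest probe set with its 95% interval from limma, crosses are other probe sets of mean 45 or more, and lines part the mevalonate steps, the steps from squalene, the regulators, and transport and turnover. The intervals reach from -0.46 to 0.35, and the cross farthest from 0 is the second probe set of Sc5d, at 0.45.

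Regulators had the narrowest range of the 4 role groups, with differences from -0.05 to 0.09 over 5 genes and none at an unadjusted p under 0.05. Srebf2, the SREBP factor most tied to cholesterol genes, read 445, 486 and 541 in untreated and 441, 463.5 and 597 in creatine-fed mice, and differed by 0.02 with a 95% interval from -0.17 to 0.20. Its dimmer probe set differed by 0.17 ± 0.10 (SE, limma adjusted p = 0.53). Srebf1, the factor more tied to fatty acid genes, read 397, 431 and 495 against 377, 423.5 and 486, with an interval from -0.19 to 0.12. Creatine-fed mice reached both above and below the untreated range for Srebf2, and only below it for Srebf1.

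Insig1, itself an SREBP target and so a common readout of pathway activity, read 192, 224 and 265 in untreated and 197, 231.5 and 254 in creatine-fed mice (interval -0.15 to 0.20). Insig2 read 541, 578 and 612 against 517, 546 and 627 (interval -0.18 to 0.08), and its other 2 probe sets differed by -0.03 and -0.05. Scap, the escort of SREBP factors, read 642, 693 and 770 against 639, 753.5 and 842, with 3 of 6 creatine-fed mice above every untreated one (0.09 ± 0.07, SE, limma adjusted p = 0.659). The difference of Scap was 0.14 without creatine-fed replicate 2 and 0.06 without replicate 4 of that group. A p that misses the threshold does not show that levels were equal: over all 27 genes the 95% intervals reached from -0.46 to 0.35.

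Among transport and turnover genes, Abca1 was the one with an unadjusted p under 0.05. This transporter loads cholesterol onto apolipoproteins and read 572, 598 and 619 in untreated and 489, 537 and 598 in creatine-fed mice, with 5 of 6 treated mice below every untreated one. Untreated mice lay close together, and the log2 difference was -0.15 ± 0.06 (SE, unadjusted p = 0.0238, limma adjusted p = 0.343). Its other probe sets were dimmer and differed by 0.10 and -0.05, and the mean over the 3 gave -0.04 (adjusted p = 0.887). After each array was centred the brightest gave -0.10. Abcg1, which exports sterol to lipoprotein particles, read 233, 275 and 289 against 226, 261.5 and 320, a difference of 0.01 at the brightest probe set and 0.04 at the other.

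Npc1, the membrane protein of lysosomal sterol export, read 107, 150 and 173 in untreated and 146, 161.5 and 178 in creatine-fed mice (0.15 ± 0.09, SE, limma adjusted p = 0.538), each of the 6 values after creatine exceeding the untreated mean. Untreated replicate 6 read 107, and without it the difference of Npc1 was 0.09. Npc2, its soluble partner, read 765, 779 and 899 against 706, 793 and 885, and both of its bright probe sets differed by -0.03. Cyp46a1, the neuronal cholesterol hydroxylase, read 481, 547 and 707 against 504, 560.5 and 705, with an interval from -0.16 to 0.26. In each group 1 mouse stood above 700, and the other mice of both groups overlapped between 481 and 584.

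**Figure D4:**
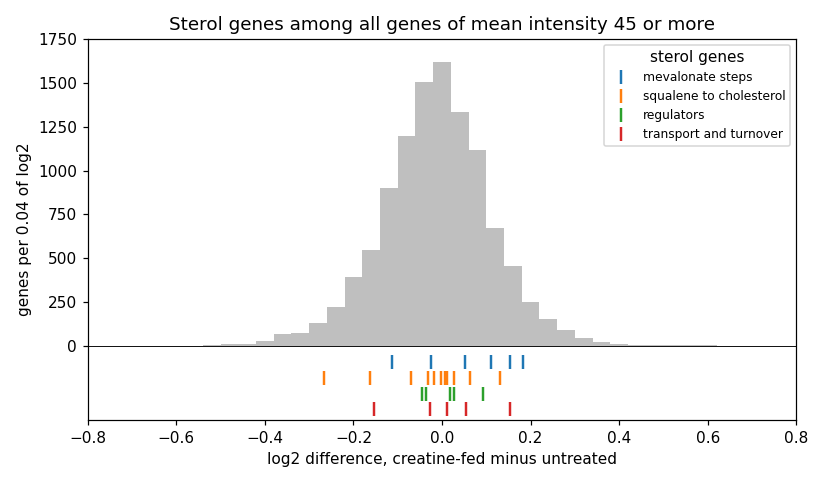
Grey bars count the 10932 genes of mean intensity 45 or more by their log2 difference, creatine-fed minus untreated, in steps of 0.04, with the most extreme genes beyond the axis; ticks under the bars are the 27 sterol genes by role. The ticks fall between -0.27 and 0.18, within the bulk of the other genes.

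Across the 13 mice, 8 pairs of sterol genes were set against each other, and none was related after adjustment over the 8 pairs. The lowest adjusted p was 0.931 for Pearson's r and 0.838 for Spearman's rho (permutation, 2-sided). Hmgcs1 and Sqle, 2 SREBP targets, had r = 0.28 (permutation p = 0.349) and rho = 0.34 (permutation p = 0.26), and r was 0.01 without the 2 mice farthest from the median of Hmgcs1. Hmgcs1 and Insig1 had r = 0.21 (permutation p = 0.487) and rho = 0.39 (permutation p = 0.19), with r = 0.70 without 2 mice, but -0.56 within creatine-fed and 0.70 within untreated mice. Abca1 and Abcg1, both targets of liver X receptors, had r = 0.34 (permutation p = 0.248) and rho = 0.30 (permutation p = 0.314), with 0.82 within creatine-fed and -0.08 within untreated mice. The other pairs (Hmgcs1 with Srebf2, Npc1 with Npc2, Sqle with Idi1, Srebf1 with Srebf2, Insig1 with Insig2) had r from -0.29 to 0.06.

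Other genes of sterol and lipid metabolism were measured in 5 lists beside the 27, each at its brightest probe set alone. Many have further probe sets, whose values are not given here. Of 46 measured genes 18 had higher and 28 lower means, with a median log2 difference of -0.03, the same as over all genes, where 58.5% had lower means. None of the 46 passed, and 7 (15.2%) had an unadjusted p under 0.05, beside 11.2% of all genes. In acetyl-CoA and isoprenoid supply (4 higher, 5 lower), Ggps1, which makes geranylgeranyl diphosphate, differed by 0.18 (limma adjusted p = 0.332), the ubiquinone side-chain enzyme Pdss2 by 0.18 (0.425) and the acetyl-CoA synthetase Acss2 by -0.14 (0.445). Of 8 genes of fatty acid synthesis 5 were lower on average. Scd2, the main stearoyl-CoA desaturase of brain and a gene prominent in myelinating cells, read 6233, 6450 and 7287 in untreated and 5467, 5804 and 6248 in creatine-fed mice. Only its highest creatine-fed mouse entered the untreated range, at a log2 difference of -0.16 ± 0.06 (SE, limma adjusted p = 0.293). The myelin markers given above were lower on average too, and their part in it was not tested. Fads1, a fatty acid desaturase, differed by -0.09 and Fasn, the fatty acid synthase, by 0.04.

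Among other regulators (3 higher, 4 lower), the retinoid X receptor Rxrb differed by 0.22 (limma adjusted p = 0.382) and the liver X receptor Nr1h3 by -0.19 (0.56). Nr1h3 was dim, with means of 44.0 in untreated and 36.8 in creatine-fed mice, near the array medians (37 to 45). Mbtps1, the Golgi protease that makes the first cut in SREBP factors, differed by -0.08 (limma adjusted p = 0.624). Of 11 genes of intracellular sterol transport and esters 4 had higher and 7 lower means. Osbpl9, an oxysterol-binding protein relative, read 552, 585 and 706 in untreated and 462, 506.5 and 565 in creatine-fed mice (-0.21, adjusted p = 0.288), with all 6 values after creatine under the untreated mean. Stard5, a sterol-binding START protein, differed by -0.27 (0.322), and Nceh1, a cholesteryl ester hydrolase, by 0.17 (0.34). Among 11 genes of uptake, export and oxysterols (4 higher, 7 lower), Cyp7b1, which hydroxylates oxysterols, read 176, 193 and 211 against 204, 214 and 229 (0.14, adjusted p = 0.399). The phospholipid transfer protein Pltp differed by 0.17 (0.486) and the lipoprotein receptor Scarb1 by 0.13 (0.494).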

How the data were processed

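Total RNA was hybridised to expression arrays, 1 array per mouse. The deposited intensities are whole numbers on a linear scale with zeros. A mean trimmed by 2% at each end was 150.05 on every array, as global scaling gives. The submitters' processing notes name RMA, whose output is on a log2 scale, unlike these values. The tool that scaled them is not given in the sources used here, and they were used as deposited.

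Of 45101 probe sets 64 controls were set aside. Symbols came from the platform annotation, updated through Entrez ID. Log2(intensity + 16) was fitted on group alone with limma 3.58.1 (R 4.3.3, lmFit and eBayes, 2-sided), with Benjamini-Hochberg adjustment across 45037 probe sets and a threshold of 0.05. The code was tested on simulated data. Pairs of genes used permutation tests with 100000 resamples. Figures used matplotlib 3.10.9. The labels call the samples biological replicates; their number limits the precision.

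The members, lists and alternatives were chosen with earlier results of these data known. The ratio of probe sets was added after the data were seen. All measured sterol genes are named, and of each further list the 3 with the smallest p. Replicate numbers were not used to pair the mice in the main fit. Correlations of same-numbered deviations ran from -0.141 to 0.335. Differently numbered mice were not compared, so these values do not decide whether the numbers pair mice.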

Additional observations from a re-analysis of the deposited data

Results flagged for a closer look

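In 8 of 62 groups checked, at the probe sets described, 1 mouse stood apart from the rest of its group on the log2 scale. Chance gives about 5% of groups. The share of such groups over all genes is not given here, so no excess is read from the 8. Idi1 read 263 in creatine-fed replicate 6, where the next lowest was 342, and 320 in untreated replicate 5, where the next was 357; its log2 difference was -0.04 without the first mouse and -0.14 without the second. Fdps read 414 in untreated replicate 7, the next being 386, and differed by 0.17 without that mouse. Msmo1 read 703 in creatine-fed replicate 4, the next being 624, and differed by -0.01 without it. Nsdhl read 275 in creatine-fed replicate 1, the next lowest being 301, and 372 in untreated replicate 6, the next highest being 329; it differed by -0.04 and -0.03 without them. Cyp46a1 read 707 in untreated replicate 3, the next being 556, and differed by 0.11 without it. Sc5d at its second probe set read 177 in creatine-fed replicate 4, the next lowest being 255, and differed by 0.54 without it (limma adjusted p = 0.108). None of these genes passed with or without the mouse named.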

How the results depend on the processing

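None of the 27 sterol genes passed under any of the 24 alternatives. Over them the adjusted p was 0.159 to 0.624 for Fdps, 0.171 to 0.887 for Abca1, 0.181 to 0.448 for Pmvk and 0.137 to 0.779 for Lss, all of which kept their sign. Centring the arrays moves the difference of every gene by the same amount. For the other settings the cause of the changes below was not tested. Probe sets past the threshold, 4 in all as reported, were 0 with an offset of 1, 36 with 50, 137 among the 22519 brighter ones, 2 after quantile normalization, 161 with eBayes trend and robust, 13 with array weights, 0 with the replicate number as a block, 2 with a pair of mice left out (creatine-fed replicate 2, untreated replicate 3), and 0 to 6 without single mice, 0 being without creatine-fed replicate 3 or 5 or untreated replicate 2, 3, 4, 5 or 6. The median of the sterol genes moved from 0.01 to 0.06 after centring each array, where 5 genes were lower, and to -0.04 when all probe sets of a gene were averaged. Sterol genes at an unadjusted p under 0.05, 4 as reported, were 2 with the replicate block, 2 with the mean of all probe sets, and 3 to 7 without single mice, 7 being without untreated replicate 3.

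Some differences changed sign. After quantile normalization Mvk read 0.00, Fdft1 -0.01 and Cyp51 0.01; after centring Mvk 0.03, Sqle 0.02, Cyp51 0.05, Hsd17b7 0.03, Srebf1 0.02, Insig2 0.01 and Npc2 0.02; with the 3′/5′ ratio Mvk 0.01 and Abcg1 -0.01. With array weights Fdft1 read -0.01, Cyp51 0.01 and Srebf2 -0.01; with the replicate block Cyp51 0.03, Sc5d -0.02 and Abcg1 -0.01. With the mean of all probe sets Hmgcs1 read -0.05, Mvd -0.10, Fdft1 -0.04, Msmo1 -0.04 and Npc2 0.01. That mean weights dim probe sets like bright ones. Among them are Fdft1 sets of array mean 13.8 and 6.08, and sets of 16.8 for Msmo1, 5.62 for Npc2 and 1.69 for Fdps. Without the pair of mice Mvk read 0.05, Cyp51 0.02, Ebp -0.02 and Sc5d -0.00. Without single mice the ranges were -0.11 to 0.03 for Mvk, -0.04 to 0.03 for Cyp51, -0.02 to 0.03 for Sc5d, -0.04 to 0.05 for Abcg1, Fdft1 and Srebf2, -0.01 to 0.04 for Msmo1, -0.01 to 0.11 for Cyp46a1, -0.00 to 0.14 for Mvd, -0.06 to 0.01 for Npc2, -0.04 to 0.00 (just above 0) for Hsd17b7 and -0.01 to 0.07 for Insig1. A block for slide or scan date was not run, since neither is in the file used.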
